A study of Rattus norvegicus with 16 samples.

Results

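The 10 symbols studied here name genes whose products sit at the sarcomeric Z-disc or on the titin filament and that respond to stretch of heart muscle: Ankrd1, Ankrd2, Ankrd23, Csrp3, Xirp1, Xirp2, Flnc, Myot, Fhl1 and Tcap. They were taken by symbol from count files of 32754 entries, and each of the 10 has 1 entry. Of these, 8 had enough counts to enter the test across 13458 genes. Ankrd2 and Tcap did not, and are given as counts.

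The tissue was the right ventricle of female Sprague Dawley rats aged 20 to 21 weeks, sequenced as stranded mRNA libraries from 10 mg pieces. There were 4 groups of 4 libraries: KO PAB, WT PAB, KO SHAM and WT SHAM. KO rats were ERalpha -/- (estrogen receptor alpha, gene symbol Esr1), and WT rats carried no such mutation. PAB is pulmonary artery banding, a constriction that raises the pressure the right ventricle works against, left in place for 10 weeks, and SHAM is the control operation without it. The labels name neither the ERalpha allele nor the mutation in it, and they state no other treatment. They also do not say that the libraries of a group come from separate rats, so each p-value reflects only how far these libraries scatter, which may be technical. Libraries are named by group and replicate number.

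Total counts were 25778652 to 29210819 for KO PAB and 27733987 to 32411398 for WT PAB, and for the sham groups 23270079 to 34718633 (KO) and 22168110 to 27598074 (WT). Esr1 had 7 to 13 counts in KO PAB and 10 to 21 in KO SHAM libraries, against 70 to 131 in WT PAB and 91 to 139 in WT SHAM, so the genotype labels and the counts match in all 16 libraries. All 10 cardiomyocyte markers were detected. Their summed level was 45842 to 64564 CPM for KO PAB and 59467 to 65825 for WT PAB, against 48067 to 63758 for KO SHAM and 37450 to 71079 for WT SHAM. CPM are counts scaled to a common library total after TMM adjustment. A few SHAM libraries stood apart in other cell types' markers, as did KO PAB 3 in macrophage markers (given below). The 6 smooth muscle markers summed to 2899.6 CPM in WT SHAM 2, 922 in WT SHAM 3 and 1398 in KO SHAM 4, while the 8 PAB libraries held 149 to 279. In a piece of tissue, fewer cells of a type and less RNA per cell cannot be told apart.

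The Z-disc anchors actin filaments and the ends of titin, the giant spring that runs through each sarcomere, and is a place where muscle cells sense strain. Ankrd1 (CARP), Ankrd23 (DARP) and Ankrd2 (Arpp) form the muscle ankyrin repeat protein family, which binds the elastic I-band part of titin and can also move to the nucleus. Csrp3 (muscle LIM protein), Tcap (telethonin, which caps titin) and Fhl1 (a LIM-only protein that binds titin) link the same filament to signalling. Flnc (filamin C), Myot (myotilin) and the Xin actin-binding repeat proteins Xirp1 and Xirp2 hold and repair actin at Z-discs and intercalated discs. Ankrd1 and Csrp3 are long-known genes of the fetal and overloaded ventricle.

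Promoter windows, 250 bases before to 50 after a RefSeq gene start in build GRCr8, were held for 6 of the 10 genes (Ankrd2, Ankrd23, Xirp1, Xirp2, Flnc and Fhl1). The 4 below are shown because they belong to members that differ in their response to banding and hold a motif of a muscle or stretch-linked factor. Capitals mark an MCAT element, the letters CATTCC bound by TEAD factors, or a site of the muscle factor MEF2 given by its name, searched on both strands. The counts themselves were made on another build, Rnor_6.0. The windows are chr9:46274461-46274760 (minus strand) for Ankrd23, chr4:58999297-58999596 (plus strand) for Flnc, chr3:72533936-72534235 (plus strand) for Xirp2 and chr8:128634962-128635261 (minus strand) for the first of 3 Xirp1 entries.
Ankrd23: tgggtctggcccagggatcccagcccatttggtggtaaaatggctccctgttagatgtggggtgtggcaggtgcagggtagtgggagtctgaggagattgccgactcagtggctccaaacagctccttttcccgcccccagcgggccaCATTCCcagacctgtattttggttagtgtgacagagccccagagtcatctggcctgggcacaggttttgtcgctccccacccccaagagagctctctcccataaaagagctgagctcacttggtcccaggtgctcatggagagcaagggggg
Flnc: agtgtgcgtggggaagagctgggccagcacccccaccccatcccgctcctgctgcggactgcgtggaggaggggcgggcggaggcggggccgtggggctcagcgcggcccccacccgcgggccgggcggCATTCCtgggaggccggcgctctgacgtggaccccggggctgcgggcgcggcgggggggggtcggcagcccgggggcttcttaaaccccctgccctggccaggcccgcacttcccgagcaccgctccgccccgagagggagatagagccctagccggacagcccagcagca
Xirp2: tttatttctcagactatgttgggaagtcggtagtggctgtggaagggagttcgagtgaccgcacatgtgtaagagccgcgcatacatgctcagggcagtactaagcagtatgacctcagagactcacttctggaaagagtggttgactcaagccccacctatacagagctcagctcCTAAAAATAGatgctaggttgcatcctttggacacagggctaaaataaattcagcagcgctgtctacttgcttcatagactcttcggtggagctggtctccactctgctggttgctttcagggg
Xirp1: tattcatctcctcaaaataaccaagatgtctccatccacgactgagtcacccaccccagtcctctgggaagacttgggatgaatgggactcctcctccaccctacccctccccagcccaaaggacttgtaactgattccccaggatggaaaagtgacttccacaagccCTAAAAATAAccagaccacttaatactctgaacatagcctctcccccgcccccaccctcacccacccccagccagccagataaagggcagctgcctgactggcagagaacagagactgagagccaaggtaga

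An MCAT element started at position -102 of Ankrd23 and -121 of Flnc, counted from the gene start. A MEF2 site started at -74 of Xirp2 and -82 of Xirp1. Fhl1, whose first entry is not printed, had a CArG box, the site of serum response factor, at -102. Over all 33469 rat promoter entries of this length, 14.2% held MCAT, 3.29% the MEF2 site and 1.64% the CArG box. Xirp2, which rose with banding, and Xirp1, which did not pass the test, thus both hold a MEF2 match in at least 1 entry. Xirp1 entries 1 and 2 overlap and hold the same site, while Xirp1 entry 3 held none. Fhl1 entry 2 held no CArG box. A match is a description of the letters in the window, and its absence says nothing of the factor.

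Banding raised 6 of the 8 tested genes when its effect was averaged over both genotypes: Ankrd1, Ankrd23, Csrp3, Xirp2, Flnc and Myot. The log2 fold changes ran from 0.90 for Csrp3 to 3.51 for Ankrd23, and Fhl1 and Xirp1 did not pass the test. Over all 13458 genes, 3.24% were called higher in that comparison (edgeR's quasi-likelihood test, adjusted p below 0.05). The median log2 fold change of the 8 was 1.18, against -0.02 over all genes. Every one of the 8 PAB libraries lay above every one of the 8 SHAM libraries for 4 of them, Ankrd1, Csrp3, Xirp2 and Flnc, a pattern that 0.646% of all genes showed. The members were chosen with earlier results of these data known. Their shares and medians beside those of all genes, here and below, are therefore a description and not a test.

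**Figure D1:**
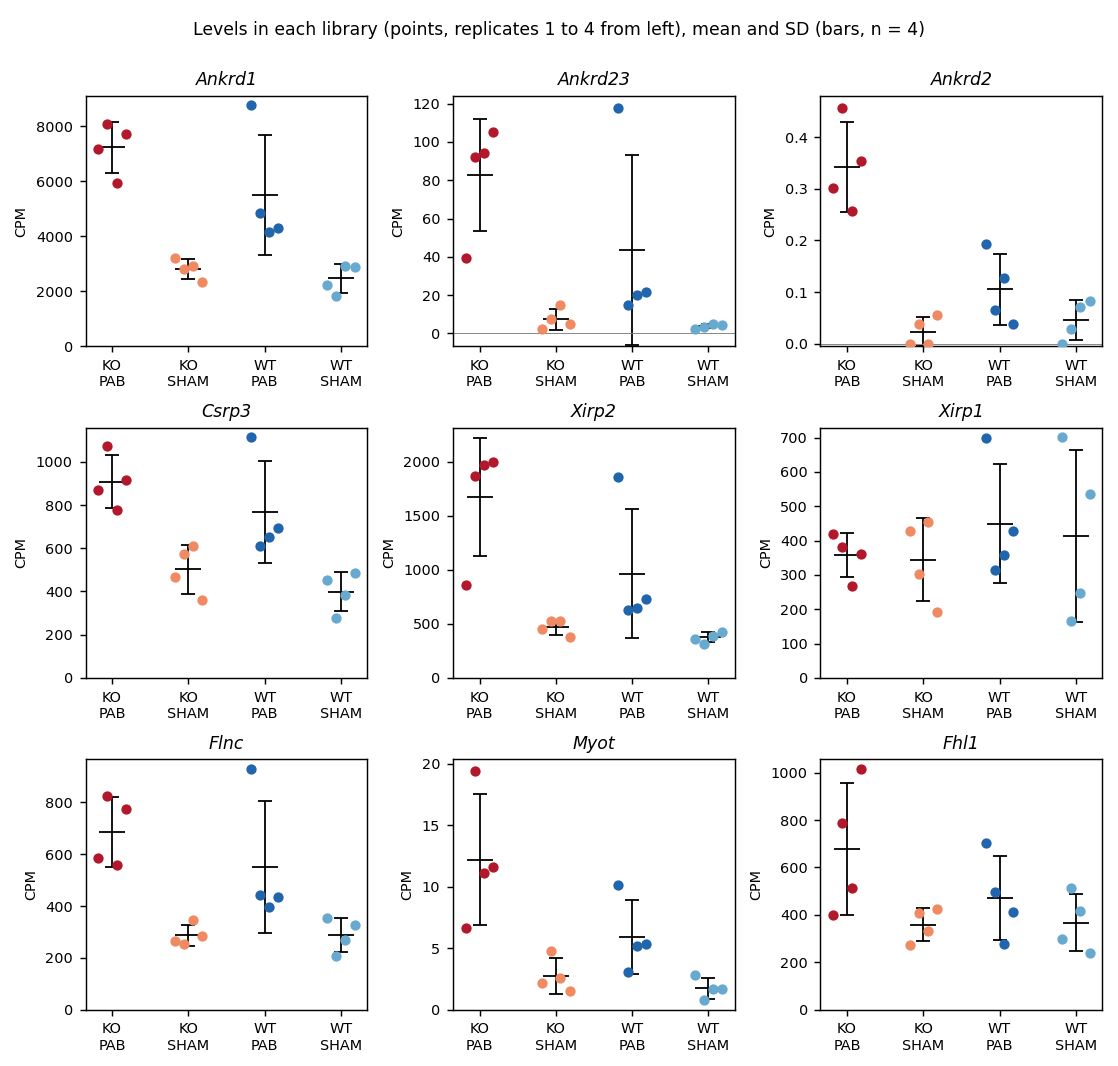
Levels of 9 genes in CPM (linear axes) by group, with 1 point per library in replicate order and the bar and whiskers showing mean ± SD (n = 4). Ankrd1, Csrp3, Xirp2 and Flnc are above every SHAM library in all 8 PAB libraries, WT PAB 1 is the highest WT PAB library for each of the 8 tested genes, and Ankrd2 stays under 0.5 CPM.

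Among the ankyrin repeat proteins, Ankrd1 had 7188, 8070.1, 5952 and 7707 CPM in the 4 KO PAB libraries, against 3224, 2819.9, 2900.4 and 2325 CPM in KO SHAM. In WT PAB it had 8759, 4831, 4151 and 4299 CPM, against 2239.8, 1828, 2917 and 2867 CPM in WT SHAM. The banded and sham libraries did not overlap in either genotype, and WT PAB 1 was the highest of all 16. The averaged log2 fold change was 1.26 (SE 0.16, adjusted p = 0.00176). It was 1.36 in KO (SE 0.23, adjusted p = 0.0250) and 1.16 in WT (SE 0.23, adjusted p = 0.179).

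Ankrd23 had the widest fold change of the 8. Its KO PAB libraries held 39.3, 92.4, 94.2 and 105 CPM, and its KO SHAM libraries 2.48, 7.33, 15.0 and 4.97 CPM. The WT PAB libraries held 118, 14.8, 19.9 and 21.7 CPM, and WT SHAM 2.49, 3.34, 4.69 and 4.60 CPM. Banded libraries lay above the sham libraries of their own genotype throughout, but the lowest WT PAB library, at 14.8 CPM, was just under the highest KO SHAM library, at 15.0 CPM. Averaged over genotypes, the log2 fold change was 3.51 (SE 0.50, adjusted p = 0.00335), with 3.49 in KO (adjusted p = 0.0396) and 3.52 in WT (adjusted p = 0.179). Set over the SHAM mean of its own genotype, the gene was 5.28, 12.4, 12.7 and 14.1 times as high in the KO PAB libraries and 31.2, 3.91, 5.27 and 5.74 times as high in WT PAB. WT PAB 1 therefore carried much of the WT mean of 43.6 ± 49.6 CPM (SD, n = 4). Without that library the averaged value was 2.90 and the WT value 2.31. The KO value was 4.09 without KO SHAM 3, the highest KO SHAM library.

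Ankrd2, the family member best known from skeletal muscle, was near the detection limit, with 8, 12, 7 and 10 counts in KO PAB and 0, 1, 0 and 2 counts in KO SHAM. WT PAB had 5, 2, 4 and 1 counts and WT SHAM 0, 1, 2 and 2. The KO PAB libraries lay above all 12 others, while WT PAB and WT SHAM overlapped. Summed over libraries and scaled for depth, the ratio of KO PAB to KO SHAM was 13.5 (exact 95% interval 4.27 to 68.3, counting error only), and that of WT PAB to WT SHAM was 2.27 (0.745 to 8.23). The two-sided exact permutation p over libraries was 0.0286 in KO, the smallest that 4 against 4 can give, and 0.2 in WT. Adjusted over both comparisons, the KO value was 0.0571, which misses the threshold. With 4 against 4 libraries, KO could pass this adjustment only if WT also reached 0.0286, so the miss carries no weight. When edgeR was run with no filter on low counts, Ankrd2 passed for banding averaged over genotypes (log2 fold change 2.34, SE 0.55, adjusted p = 0.0315), but not in KO (adjusted p = 0.0614) or WT (adjusted p = 0.635) alone. The 7 skeletal muscle markers listed in the files summed to 1.68 to 2.53 CPM in KO PAB and 0.543 to 1.97 in WT PAB, against 0.461 to 1.29 in KO SHAM and 0.452 to 2.11 in WT SHAM. Of these, Myog was at 0 in both SHAM groups and Mybpc1 at 0 in KO PAB. Their part in the Ankrd2 values was not tested.

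Of the LIM proteins, Csrp3 had 871, 1075, 776 and 914 CPM in KO PAB, against 468, 572, 610.2 and 361 CPM in KO SHAM. It had 1116, 613, 649.9 and 693 CPM in WT PAB, against 451, 277, 385 and 485 CPM in WT SHAM. Here too no banded library fell within the sham range, although WT PAB 2, at 613 CPM, came close to KO SHAM 3, at 610.2 CPM. Averaged over genotypes, the log2 fold change was 0.90 (SE 0.16, adjusted p = 0.00648). It was 0.85 in KO (SE 0.22, adjusted p = 0.0829) and 0.94 in WT (SE 0.22, adjusted p = 0.202), neither past the threshold. Csrp3 did pass in KO by DESeq2 (adjusted p = 0.00880), and by edgeR without WT PAB 1 (adjusted p = 0.0336), without WT SHAM 2 or with only the KO groups fitted.

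Fhl1, the other LIM protein, spread widely within groups. Its level was 398, 787, 514 and 1017 CPM in KO PAB and 274, 409.9, 330.0 and 423 CPM in KO SHAM. In WT PAB it was 702, 498, 275 and 410.4 CPM, and in WT SHAM 298, 512, 417 and 241 CPM. Banded and sham libraries overlapped in both genotypes. The averaged log2 fold change was 0.64 (SE 0.23, adjusted p = 0.115 by edgeR), with 0.92 in KO (adjusted p = 0.190) and 0.36 in WT (adjusted p = 0.668). DESeq2 called the averaged change, with an adjusted p of 0.0435. The SHAM libraries highest in Fhl1 were KO SHAM 4 and WT SHAM 2, both of which also stood out in smooth muscle markers. Without those 2 and WT SHAM 3 the averaged value was 0.91 (adjusted p = 0.0631), so Fhl1 still missed the threshold by edgeR.

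The 2 Xin proteins, which share actin-binding repeats, differed. Xirp2 had 858, 1868, 1970.1 and 2001 CPM in KO PAB, against 452, 523, 525 and 377 CPM in KO SHAM. It had 1855, 629.9, 645 and 735 CPM in WT PAB, against 364, 318, 392 and 426 CPM in WT SHAM. All banded libraries exceeded all sham libraries, but each banded group held 1 library apart from its other 3, a low one in KO and a high one in WT. Those 3 were about 4 times their SHAM mean in KO (3.98, 4.20 and 4.26) and under 2 times in WT (1.68, 1.72 and 1.96). KO PAB 1 stood at 1.83 times and WT PAB 1 at 4.95 times. The averaged log2 fold change was 1.60 (SE 0.24, adjusted p = 0.00382). It was 1.84 in KO (SE 0.34, adjusted p = 0.0309) and 1.37 in WT (SE 0.33, adjusted p = 0.221). Without WT PAB 1 the WT value was 0.84.

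Xirp1 held 420.3, 381, 268 and 361 CPM in KO PAB and 428, 303, 454 and 192 CPM in KO SHAM. WT PAB held 699, 315, 357 and 428 CPM and WT SHAM 702, 167, 247 and 537 CPM. Banded and sham libraries overlapped in both genotypes, and the highest library of all was a sham one. In log2 terms the averaged change was 0.09 (SE 0.28, adjusted p = 0.888), 0.05 in KO (SE 0.40, adjusted p = 0.969) and 0.12 in WT (SE 0.40, adjusted p = 0.926). WT SHAM 2 and KO SHAM 4 were the lowest of their groups, and without them and WT SHAM 3 the averaged value was -0.30 (adjusted p = 0.362).

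Filamin C, which crosslinks actin at the Z-disc and is renewed through the chaperones Bag3 and Hspb8, had 585, 827, 559 and 774 CPM in KO PAB, against 266, 253, 345 and 286 CPM in KO SHAM. Flnc had 930.1, 444, 395 and 435 CPM in WT PAB, against 352, 206, 271 and 326 CPM in WT SHAM. The 8 banded libraries lay above the 8 sham libraries, by a narrow gap in WT. Its averaged log2 fold change was 1.09 (SE 0.18, adjusted p = 0.00505), with 1.26 in KO (adjusted p = 0.0396) and 0.93 in WT (adjusted p = 0.268). The WT value was 0.56 without WT PAB 1.

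Myotilin, which binds both alpha-actinin and filamin C, was scarce in this tissue. Myot had 6.63, 19.4, 11.1 and 11.6 CPM in KO PAB, against 2.14, 4.80, 2.55 and 1.48 CPM in KO SHAM. It had 10.1, 3.04, 5.21 and 5.32 CPM in WT PAB, against 2.81, 0.790, 1.68 and 1.64 CPM in WT SHAM. Within each genotype the banded libraries were all above the sham ones, but WT PAB 2, at 3.04 CPM, was below KO SHAM 2, at 4.80 CPM. The averaged log2 fold change was 1.97 (SE 0.33, adjusted p = 0.00554), with 2.16 in KO (SE 0.46, adjusted p = 0.0496) and 1.79 in WT (SE 0.47, adjusted p = 0.247). The call in KO was lost in 19 of 25 alternative fits, against 7 to 14 for the other members called in KO.

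Tcap was listed at 1 count in KO PAB 4 and in WT PAB 3, and at 0 in the other 14 libraries. A count of 0 allows a level of up to 0.0823 to 0.138 CPM, depending on the library (3 counts, counting error only). Telethonin is an abundant protein of the heart, so these entries go against what is known of the gene. No fold change is given for it, and what its entry collected was not tested.

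**Figure D2:**
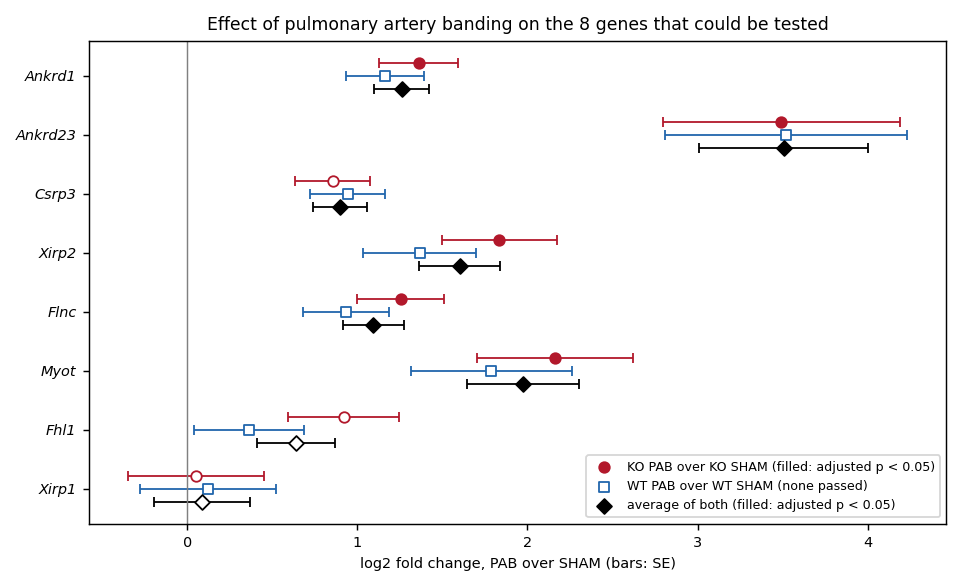
Log2 fold change of PAB over SHAM for the 8 tested genes, in KO, in WT and averaged over both, with whiskers of 1 SE (filled symbols: adjusted p below 0.05). The averaged value is filled for 6 genes, between 0.90 and 3.51, and open for Fhl1 (0.64) and Xirp1 (0.09).

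Within KO alone, banding raised 5 of the 8 genes, Ankrd1, Ankrd23, Xirp2, Flnc and Myot, while 0.513% of all genes were called higher. The median log2 fold change of the 8 was 1.31, against -0.02 for all genes. Every KO PAB library lay above every KO SHAM library for 6 of the 8, against 5.86% of all genes. This count of calls changed with single libraries: it was 0 without KO PAB 2, KO PAB 4, KO SHAM 1, KO SHAM 2 or KO SHAM 3, 1 without KO PAB 3 or KO SHAM 4, 2 without WT SHAM 1, WT SHAM 3 or WT SHAM 4, and 3 without WT PAB 2. In the 5 fits with 0 calls among the 8, 0 or 1 of all genes were called higher, and the median log2 fold change of the 8 was 1.23 to 1.37. With libraries scaled to the 10 cardiomyocyte markers the count was also 0, as it was over all genes, with a median of 1.39 for the 8.

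Within WT, edgeR called 0 of the 8 genes in either direction, against 0.00743% of all genes (1 gene). At an unadjusted p below 0.05 there were 6 of the 8, and 1575 of all genes. DESeq2 called 6 (Ankrd1, Ankrd23, Csrp3, Xirp2, Flnc and Myot), and of all 13458 genes it called 87 higher and 21 lower. With limma-voom the count was 0 of the 8 and 0 of all genes. Every WT PAB library lay above every WT SHAM library for the same 6 that did so in KO, a pattern shown by 2.6% of all genes. The median log2 fold change of the 8 was 1.05, against -0.02. A call in KO and its absence in WT do not show that the genotypes differ. The interaction, which tests that difference, called 0 of the 8 genes and 0% of all genes (adjusted p = 0.999 for each of the 8), with 0 calls by DESeq2 and by limma-voom. At an unadjusted p below 0.05 it held 0 of the 8 and 237 of all genes.

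With all 16 libraries each interaction value lay within 2 SE of 0. Ankrd1 had 0.20 (SE 0.32), Ankrd23 -0.03 (SE 0.90), Xirp2 0.47 (SE 0.46), Flnc 0.32 (SE 0.36) and Fhl1 0.56 (SE 0.46), as the log2 effect of banding in KO minus that in WT. Without WT PAB 1 the values were 1.00 for Xirp2 (SE 0.32), 0.70 for Flnc (SE 0.25), 0.51 for Ankrd1 (SE 0.24), 1.18 for Ankrd23 (SE 0.66) and 0.81 for Fhl1 (SE 0.45), and the adjusted p was 0.988 for each of the 8. Each of these values was the highest of the fits leaving out a single library. Over those fits Xirp2 ran from 0.31 to 1.00, Flnc from 0.19 to 0.70 and Ankrd1 from 0.083 to 0.51. Ankrd23 ran from -0.33 to 1.18 and Fhl1 from 0.29 to 0.81. With errors of this size, the data neither show a difference between genotypes nor that there is none.

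**Figure D3:**
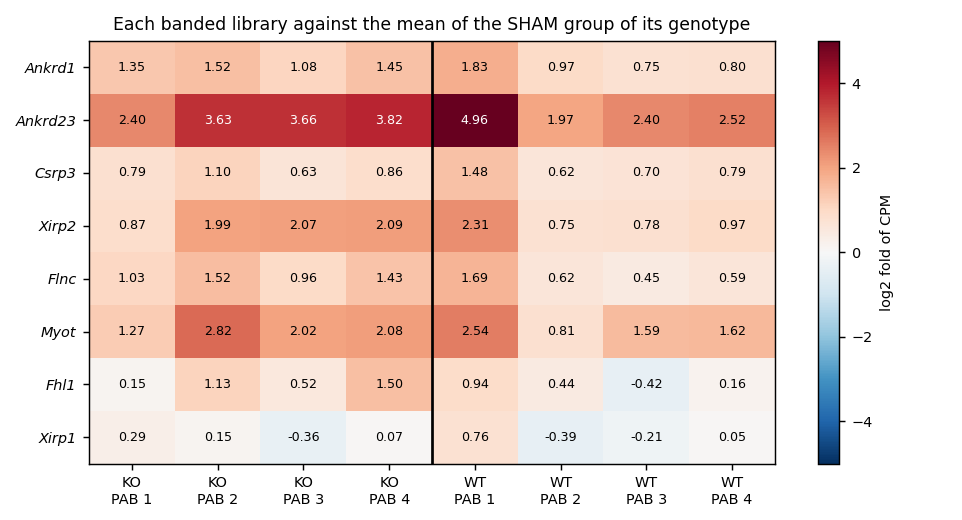
Heat map of the log2 fold of each PAB library over the SHAM mean of its own genotype, for the 8 tested genes (rows) and 8 PAB libraries (columns). The column of WT PAB 1 is the highest of the WT columns in every row, and in KO PAB 1 the cells of Ankrd23, Xirp2, Myot and Fhl1 are the lowest of the KO columns.

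The banded libraries of 1 group differed from each other in several of these genes at once. WT PAB 1 was the highest WT PAB library for all 8 tested genes, while its summed cardiomyocyte markers, at 59467 CPM, were the lowest of that group. KO PAB 1 was the lowest KO PAB library for Ankrd23, Xirp2, Myot and Fhl1, and KO PAB 3 the lowest for Ankrd1, Csrp3, Xirp1 and Flnc. KO PAB 2 was highest for Ankrd1, Csrp3, Flnc and Myot. Among sham libraries, WT SHAM 2 was the lowest WT SHAM library for 6 genes (not Ankrd23 or Fhl1). These ranks are of CPM. Summed cardiomyocyte markers were lowest in KO PAB 3 among PAB libraries (45842 CPM) and in WT SHAM 2 among sham libraries (37450 CPM). Set over those markers, KO PAB 1 was the lowest KO PAB library for Ankrd1, Csrp3 and Flnc, and KO PAB 3 only for Xirp1. KO PAB 4 was then highest for Ankrd1 and Flnc, and WT SHAM 2 lowest only for Xirp1 and Myot. WT PAB 1 stayed the highest WT PAB library for all 8. These genes were measured in the same libraries, so their ranks are not independent.

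The mean of KO PAB was the highest of the 4 groups for 7 of the 8 tested genes and for Ankrd2, and Xirp1 was the exception. For Ankrd1, Ankrd23, Csrp3, Xirp2 and Myot the order was KO PAB, WT PAB, KO SHAM and WT SHAM. For Flnc and Fhl1 it was KO PAB, WT PAB, WT SHAM and KO SHAM. KO PAB and WT PAB overlapped in each of the 8, through WT PAB 1 alone for Ankrd1, Ankrd23, Csrp3, Xirp2, Flnc and Myot. The step from WT PAB down to the higher sham group was free of overlap for Ankrd1, Csrp3, Xirp2 and Flnc, and the sham groups overlapped in each. The share of all genes with these orders and overlaps was not computed, so the counts only describe these genes.

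Compared directly, KO PAB over WT PAB passed the test for 0 of the 8 genes by edgeR, DESeq2 and limma-voom, against 0.00743% of all genes by edgeR. Their median log2 fold change was 0.46, against -0.00 for all genes. At an unadjusted p below 0.05 edgeR held 2 of the 8 and 608 of all genes. The 2 were Xirp2, with a log2 fold change of 0.79, and Myot, with 1.05, both at an adjusted p of 0.999. Ankrd1 averaged 7229 ± 925 CPM in KO PAB and 5510.1 ± 2186 CPM in WT PAB (SD, n = 4 each), a log2 fold change of 0.39. Xirp2 averaged 1674 ± 547 CPM in KO PAB and 966 ± 594 CPM in WT PAB, and Ankrd23 82.7 ± 29.5 CPM in KO PAB and 43.6 ± 49.6 CPM in WT PAB. In these 3 genes WT PAB 1 stood apart from the other WT PAB libraries. Without it the log2 fold changes were 1.32 for Xirp2 (SE 0.24, adjusted p = 0.130), 2.14 for Ankrd23 (SE 0.49, adjusted p = 0.270), 0.71 for Ankrd1 (SE 0.18, adjusted p = 0.288), 0.69 for Flnc (SE 0.19, adjusted p = 0.320) and 1.43 for Myot (SE 0.46, adjusted p = 0.416), and the count past the test was again 0. WT PAB 1 was singled out for being extreme in these same genes, so each value is the highest of the fits leaving out a single library. Over those fits Xirp2 ran from 0.63 to 1.32, Ankrd23 from 0.64 to 2.14 and Ankrd1 from 0.28 to 0.71. Flnc ran from 0.19 to 0.69 and Myot from 0.73 to 1.43. In sham hearts, KO over WT had 0 of the 8 past the test by each of the 3 tools and 0 at an unadjusted p below 0.05, against 0.00743% of all genes by edgeR and 273 unadjusted. Its values ran from -0.26 for Xirp1 to 0.96 for Ankrd23.

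**Figure D4:**
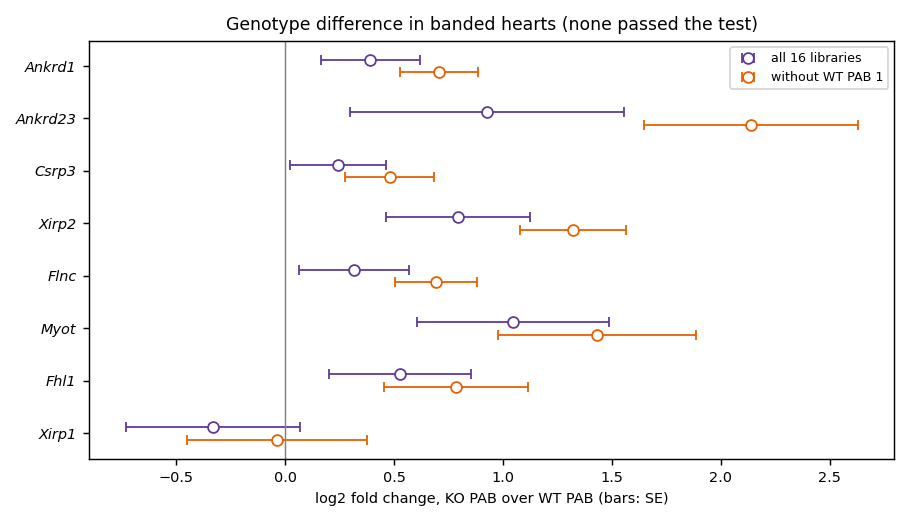
Log2 fold change of KO PAB over WT PAB for the 8 tested genes, with all 16 libraries and without WT PAB 1 (whiskers: 1 SE). Leaving out that library moves Xirp2 to 1.32, against 0.79 with it, and Ankrd23 to 2.14, against 0.93, while all 8 adjusted p-values stay above the threshold. Among fits leaving out a single library, these are the highest values, and the lowest are 0.63 for Xirp2 and 0.64 for Ankrd23.

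Markers of other cell types were summed in the same libraries. The adipocyte markers summed to 13.1 to 29.4 CPM in KO PAB and 13.9 to 17.3 in WT PAB, against 19.3 to 42.0 in KO SHAM and 18.5 to 138 in WT SHAM. The mesothelial markers summed to 13.0 to 18.3 CPM in KO PAB and 12.3 to 17.3 in WT PAB, against 14.0 to 106 in KO SHAM and 7.61 to 113 in WT SHAM. The 4 atrial markers summed to 4.29 to 19.6 CPM in KO PAB and 4.46 to 17.2 in WT PAB, against 1.19 to 11.7 in KO SHAM and 1.06 to 12.9 in WT SHAM, with Bmp10 at 0 in both SHAM groups. The 6 fibroblast markers summed to 848 to 1942 CPM in KO PAB and 885 to 1446 in WT PAB, against 1056 to 2497 in KO SHAM and 1038 to 3465 in WT SHAM. Macrophage markers summed to 33.4 to 107 CPM in KO PAB and 33.9 to 52.9 in WT PAB, against 34.5 to 108 in KO SHAM and 31.8 to 115 in WT SHAM. KO PAB 3 was the highest PAB library in both of these lists. Endothelial markers summed to 270 to 306 CPM in KO PAB and 287 to 371 in WT PAB, against 270 to 343 in KO SHAM and 255 to 355 in WT SHAM. Without WT SHAM 2, WT SHAM 3 and KO SHAM 4 all 6 averaged calls held, with log2 fold changes of 1.20 for Ankrd1, 3.48 for Ankrd23, 0.72 for Csrp3, 1.52 for Xirp2, 0.98 for Flnc and 1.68 for Myot. Scaled to the 10 cardiomyocyte markers, the same 6 were 1.23, 3.49, 0.88, 1.59, 1.07 and 1.99 in that order, with adjusted p from 0.00622 to 0.0134. Beyond these fits, the part of other cell types in the members' values was not tested.

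Other genes of the Z-disc and titin apparatus were counted in the averaged comparison, in which 3.24% of all 13458 genes were called higher. These lists too were chosen with earlier results of these data known, so their counts are a description. Of 21 other Z-disc genes tested, 4 passed the averaged test, all upward, and the median log2 fold change was 0.20 (all genes: -0.02). They were Nrap, a scaffold of myofibril assembly, at 0.94 (SE 0.16, adjusted p = 0.00652), Pdlim5 at 0.65 (adjusted p = 0.00886), Synpo2l at 0.90 (adjusted p = 0.0130) and Cfl2, a cofilin that severs actin, at 0.46 (adjusted p = 0.0309). Nrap averaged 718 ± 96.9 CPM in KO PAB against 361 ± 74.1 in KO SHAM, and 596 ± 221 CPM in WT PAB against 321 ± 74.8 in WT SHAM.

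Of 19 genes for titin and its other partners, 3 passed, all upward, with a median of 0.04. These were Trim54 (MuRF3, a ubiquitin ligase of the sarcomere) at 0.55, the autophagy receptor Sqstm1 at 0.38 and the caveolar protein Murc at 0.50. Of 13 filamins and chaperones of stretched muscle, 3 passed, all upward, with a median of 0.30. They were small heat shock proteins, Hspb6 at 0.69 (adjusted p = 0.0149), Hspb7 at 0.62 (adjusted p = 0.0248) and Hspb8, a partner of Bag3 in filamin turnover, at 0.45 (adjusted p = 0.0377). Of 21 costamere and intercalated disc genes, Tln2 passed at 0.30 (adjusted p = 0.0453), with a list median of 0.10. Of 11 genes for YAP, TEAD and their targets, Tead1, a factor that binds the MCAT element, passed at 0.55 (adjusted p = 0.0152), with a list median of 0.06. In this fit of all 16 libraries, the 1 call in the costamere list and in the YAP list does not set either apart from all genes (3.24% called higher).

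Without the 3 sham libraries that stood apart, the counts in either direction were 2, 2, 2, 2 and 5 in these 5 lists, in the order given. In that fit 520 of all 13583 genes were called higher and 431 lower. The 5 were in the list for YAP, TEAD and their targets, which had 1 call with all 16 libraries. Nrap and Hspb6 passed in each of the 24 alternative fits, while Tln2 lost its call in 14, Sqstm1 in 11, Hspb8 in 10, Murc in 8 and Cfl2 in 7.

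The genes whose log2 level followed a member most closely over the 16 libraries were found by Pearson correlation among 11662 genes, as a description, since all share libraries, depth and the 4 groups. They were Ttc7b for Ankrd1 (r = 0.963, Spearman's rho = 0.944), Tceal7 for Ankrd23 (r = 0.984, rho = 0.965) and Dffa for Csrp3 (r = 0.982, rho = 0.979). Klhl34 followed Flnc (r = 0.980, rho = 0.965), Rbm44 followed Xirp2 (r = 0.966, rho = 0.953), and Kif5b followed Myot (r = 0.965, rho = 0.956). Xirp1 and Fhl1 had the least close neighbours of the 8, Vegfa for Xirp1 (r = 0.942, rho = 0.879) and Akap13 for Fhl1 (r = 0.901, rho = 0.932).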

How the data were processed

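The authors deposited 1 file per library with expected counts per gene symbol, whole numbers from STAR 2.5.3a and RSEM 1.3.0 on Rnor_6.0, per the submitters' processing notes. The annotation, the strand setting and the rounding are not given in the sources used here, so overlapping genes could share reads. In RefSeq on GRCr8, Xirp1, Xirp2, Flnc and Fhl1 each overlapped 1 gene, whose symbol was not among the counted entries. The other members overlapped none. The annotation used for the counts, on Rnor_6.0, could differ. Files hold 32754 entries, 274 symbols occur more than once (none a member), and totals were 22168110 to 34718633.

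The test was edgeR 4.0.16 (R 4.3.3) with TMM scaling, filterByExpr defaults (min.count 10), a robust quasi-likelihood fit of 4 group means over 16 libraries, and Benjamini-Hochberg adjustment over all 13458 tested genes, with adjusted p below 0.05 called. The SE is the size of the log2 fold change over the square root of F. Levels are CPM on TMM-scaled totals, mean ± SD with n = 4. Ankrd2 was compared by two-sided exact permutation tests. The fit was also run on simulated counts, and the outcome is not given here. Those counts had the same banding effect in both genotypes and genes drawn independently, so no interaction was simulated. Alternatives were RLE factors, DESeq2 1.42.0, limma-voom 3.58.1, other count filters, the compared groups only, a replicate block and leaving out each library. Chosen after seeing the data were leaving out 3 sham libraries and scaling to 10 cardiomyocyte markers. The named genes are the 10 members, the list genes past the averaged test and each tested member's closest gene by Pearson's r on log2(CPM + 1), among genes with a mean of at least 1 CPM. Members and lists were chosen with earlier results of these data known. No 2 libraries were identical, and replicates differed by more than counting noise (chi-square per degree of freedom at least 19.2).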

Additional observations from a re-analysis of the deposited data

Results flagged for a closer look

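Of 36 gene and group sets of 4 libraries, 6 held a library far from its other 3 by Dixon's test, and chance flags about 1 in 20. WT PAB 1 was the high library in 5 of them. It had 8759 CPM of Ankrd1 (the other WT PAB libraries 4151 to 4831), 118 CPM of Ankrd23 (14.8 to 21.7), 1116 CPM of Csrp3 (613 to 693), 930.1 CPM of Flnc (395 to 444) and 1855 CPM of Xirp2 (629.9 to 735). In the sixth, KO PAB 1 was the low library, with 858 CPM of Xirp2, against 1868 to 2001 CPM in the other KO PAB libraries. These genes share the library, so the 5 values of WT PAB 1 are not separate events, and what sets that library apart was not tested.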

How the results depend on the processing

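The 6 averaged calls (Ankrd1, Ankrd23, Csrp3, Xirp2, Flnc and Myot) held in each of 24 alternatives. The count of members past the test in KO, 5 as reported, was 3 with no count filter, 0 with a replicate block, 3 with 3 sham libraries left out, 0 with cardiomyocyte scaling and 0 to 6 over the leave-one-out fits. The count in WT, 0 as reported, was 6 by DESeq2. For genotype and interaction, no alternative called any of the 8 genes. Cardiomyocyte scaling moved the median log2 fold change of all genes to -0.23 for banding in WT, 0.20 for genotype in PAB, -0.11 for genotype in SHAM and 0.31 for the interaction. Over all genes, the count called higher in the averaged comparison, 436 as reported, was 765 by DESeq2 and 83 with cardiomyocyte scaling. In KO it was 69 as reported, 330 by DESeq2, 125 with only the groups compared, 193 without the 3 sham libraries, and 0 with the block or cardiomyocyte scaling, and in WT it was 87 by DESeq2, against 1. Of the 5 gene lists, DESeq2 called 7, 6, 5, 1 and 1 genes and cardiomyocyte scaling 2, 2, 2, 0 and 0, against 4, 3, 3, 1 and 1 as reported. The causes of these shifts were not tested.

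Signs that turned were of values past no test. With the 3 sham libraries left out, Xirp1 was -0.30 averaged, -0.14 in KO, -0.46 in WT and 0.32 in the interaction, Fhl1 was 0.33 for genotype in SHAM and Csrp3 was 0.00832 in the interaction. Cardiomyocyte scaling gave interactions of 0.058 for Xirp1, 0.27 for Ankrd23 and 0.14 for Csrp3. By limma-voom, genotype in SHAM was 0.00460 for Flnc and 0.021 for Fhl1, and the Ankrd23 interaction was 0.77. The replicate block gave 0.026 for Flnc in SHAM and 0.15 for the Ankrd23 interaction. Leaving out each library, the interaction ran from -0.33 to 1.18 for Ankrd23, -0.21 to 0.15 for Csrp3 and -0.45 to 0.23 for Xirp1. Genotype in SHAM ran from -0.19 to 0.18 for Fhl1, -0.13 to 0.10 for Flnc and -0.52 to 0.12 for Xirp1. Banding of Xirp1 ran from -0.060 to 0.28 averaged, -0.14 to 0.22 in KO and -0.17 to 0.50 in WT.

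Replicate numbers did not pair the libraries throughout: 7 of 24 pairs sharing a number had a correlation of deviations above 0.1 (range -0.62 to 0.56), and 3 of 16 libraries correlated best with their own number. WT SHAM 1 had 0.56 with KO SHAM 1 and 0.43 with KO PAB 1. Whether some libraries shared a batch or day was not tested. The replicate block kept the 6 averaged calls and took the count in KO from 5 to 0. Low counts limit Ankrd2, with at most 12 counts in a library.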
